A study of Mus musculus with 66 samples.

Results

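Depletion of Paf1 was set directly against depletion of Cdc73 in C2C12 cells, a line of mouse myoblasts that grow as muscle precursors and can be driven to form myotubes. The comparison used the 2 siPaf1 and the 2 siCdc73 RNA-seq libraries, which are 4 of the 66 samples of the series and 4 of its 7 RNA-seq samples, and every gene of the count table entered it once. All groups received siRNA at 50 nM and were harvested at 48 h: the siRNA targeted Paf1 in siPaf1 and Cdc73 in siCdc73, and siCtrl received the control siRNA labelled siNS. Each of these groups had 1 library in batch 1 and 1 in batch 2, and siPaf1 was compared with siCdc73 within each batch. The control libraries are not part of that difference, but they entered the fit and so its batch term and its estimate of the spread. The fit also held 1 siSki8 library, whose siRNA targeted Ski8 and which was present in batch 2 alone. The methods give a single siRNA sequence for each target, so an effect of the loss of the target and another effect of the same siRNA cannot be told apart. The sources used here do not say whether the 2 libraries of a group came from separate cultures, and p-values then measure the spread between these libraries only.

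Paf1 and Cdc73 are subunits of the Paf1 complex (Paf1C), which travels with RNA polymerase II and helps it to elongate through chromatin. The complex promotes ubiquitination of histone H2B and methylation of other histones on transcribed genes, and it takes part in the processing of the 3' ends of transcripts. Cdc73, also called parafibromin, is known in addition as a tumour suppressor that binds beta-catenin in the Wnt pathway. Setting the siRNAs against each other asks which genes respond differently to loss of one subunit than to loss of the other.

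The RNA-seq libraries held 6150046 reads in genes for siPaf1 in batch 1, 2796693 for siPaf1 in batch 2, 6319417 for siCdc73 in batch 1 and 3572156 for siCdc73 in batch 2. Levels are given below as reads per 1000000 reads (CPM) after scaling by the trimmed mean of M values (TMM), which sets the bulk of genes equal between libraries. Of the myoblast markers, 5 of 7 were listed, and in unscaled counts they summed to 2347 and 2883 CPM in siPaf1, 1291 and 1512 CPM in siCdc73 and 2314 and 2870 CPM in siCtrl. The sum was thus near the control in siPaf1 and lower in siCdc73 in both batches, but its members did not move together. Des was the largest member in siPaf1, at 9307 and 5669 reads. In the deposited values per length (RPKM), Des in siPaf1 lay above the siCtrl library of its batch. Cdh15 and Vcam1 lay below siCtrl in both knockdowns in each batch, and Myf5 was higher in siCdc73 than in siPaf1. Desmin had reads in all 4 libraries of the comparison. Of the 2 listed blood and endothelial markers, Cdh5 had 0 reads in all 4, and Ptprc had 8 and 2 in siPaf1 and 6 and 1 in siCdc73. The osteoblast marker Runx2 had 223 and 53 reads in siPaf1 and 358 and 64 in siCdc73. The adipocyte marker Pparg had 94 and 34 reads in siPaf1 and 229 and 145 in siCdc73. The 3 listed myotube markers summed to 34.6 CPM for siPaf1 and 18.2 CPM for siCdc73 in batch 1 and to 191 and 155 CPM in batch 2, so for these the batches differed more than the siRNAs did.

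The targeted genes followed their labels. Paf1 (mm9, chromosome 7, 29177970 to 29184407, plus strand, 14 exons) stood at 20.3 and 31.1 CPM in the siPaf1 libraries of batch 1 and batch 2 and at 264 and 418 CPM in the siCdc73 libraries, with 107 and 160 CPM in siCtrl. The siCdc73 libraries thus lay above siCtrl as well as above siPaf1, without overlap. The difference between siPaf1 and siCdc73 was -3.73 on the log2 scale (standard error 0.26), with an edgeR quasi-likelihood adjusted p of 1.9e-11. Against siCtrl the log2 difference of Paf1 was -2.38 in siPaf1 (edgeR adjusted p = 2.4e-08) and 1.35 in siCdc73 (edgeR adjusted p = 2.9e-05). Cdc73 stood at 98.5 and 111 CPM in siPaf1, at 14.2 and 22.02 CPM in siCdc73, and at 109 and 98.4 CPM in siCtrl. Its siPaf1 libraries lay near the control libraries, and its difference between siPaf1 and siCdc73 was 2.56 (standard error 0.27, edgeR adjusted p = 5.7e-08).

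Ctr9, the scaffold subunit of the complex, reached 296 and 328 CPM in siPaf1 and 438 and 445 CPM in siCdc73, against 172 and 211 CPM in siCtrl. Both knockdowns lay above the control libraries, by 0.71 for siPaf1 (edgeR adjusted p = 0.0155) and by 1.21 for siCdc73 (edgeR adjusted p = 8.5e-05) on the log2 scale. The direct difference for Ctr9 of -0.50 did not pass the test (edgeR adjusted p = 0.089). Wdr61, the gene symbol of the Ski8 subunit, differed by -0.03 (standard error 0.25), with siPaf1 at 107 and 133 CPM and siCdc73 at 98.9 and 152 CPM, and its sign was positive when library size alone was used for scaling. The Leo1 and Rtf1 subunits were not analysed here. Of 12 transcription elongation factors tested, 0 differed at an edgeR adjusted p under 0.05, beside 28.2% of all genes. Their differences ran from -0.64 to 0.47 on the log2 scale.

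Over all genes, 951 of 6521 tested were higher in siPaf1 (14.6%) and 888 were higher in siCdc73 (13.6%) by edgeR's quasi-likelihood test with batch as a block, at a Benjamini-Hochberg adjusted p under 0.05. Of the first, 948 had the same sign in both batches, and of the second 887. The median size of the difference was 1.09 on the log2 scale for genes higher in siPaf1 and 0.97 for those higher in siCdc73, and 565 and 415 of them differed at least 2-fold. Across all 6521 genes the batch 1 difference and the batch 2 difference correlated with r of 0.677, which describes the genes and is no test, since genes are not independent replicates. Without the batch in the fit, edgeR called 0 genes, while 453 genes higher in siPaf1 and 406 higher in siCdc73 had an unadjusted p under 0.05. DESeq2 with the block called 700 and 762. Without the siCdc73 library of batch 1 the total fell from 1839 to 839, and without that of batch 2 to 473. Scaling by library size alone moved the median of all genes from 0.02 to 0.20 on the log2 scale and gave 1408 genes higher in siPaf1 and 567 higher in siCdc73, so the balance of the directions differs without a scaling factor. With DESeq2's relative log expression factors in edgeR it was 937 and 944.

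**Figure D1:**
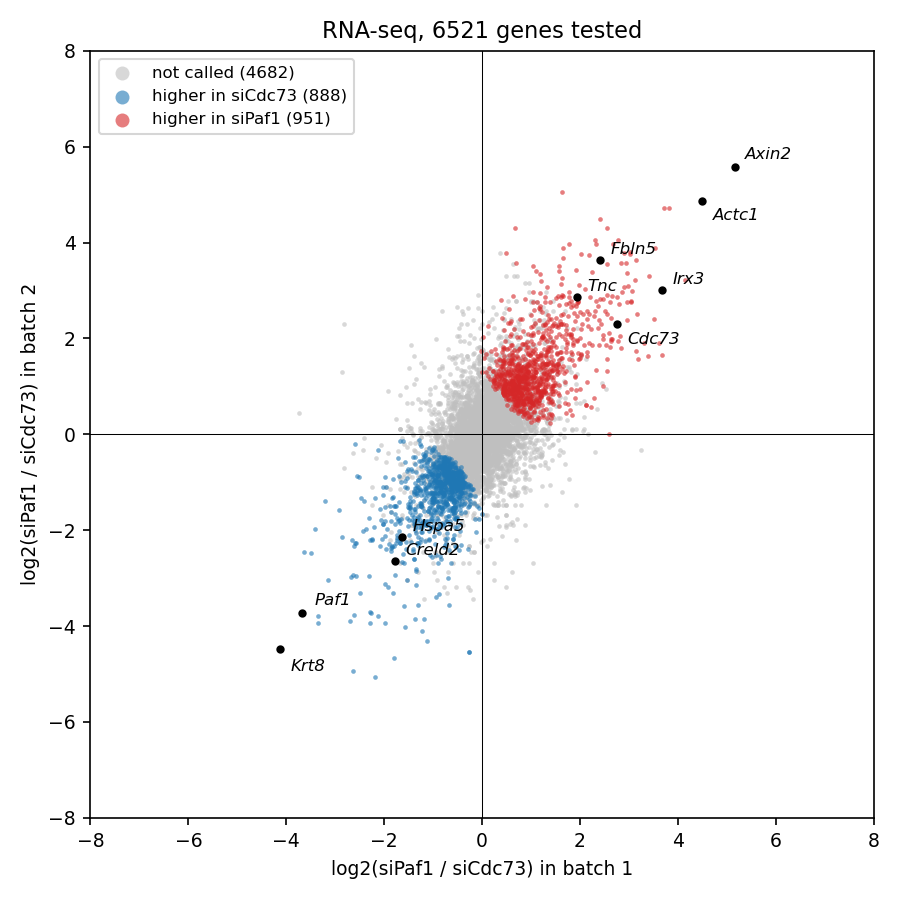
Each point is 1 of 6521 genes, with the log2 ratio of siPaf1 to siCdc73 in batch 1 on the horizontal axis and in batch 2 on the vertical axis; red and blue mark the 951 genes called higher in siPaf1 and the 888 called higher in siCdc73. Axin2 and Actc1 lie far out at the upper right and Krt8 and Paf1 at the lower left, with like values in both batches.

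The called genes differed in size as well as in direction. The median genomic span of the protein-coding genes with a gene model was 28424.5 bp for 876 genes higher in siPaf1, 18955 bp for 845 genes higher in siCdc73 and 24880 bp for 4351 genes not called. Both called classes had a median of 10 exons. The genes higher in siCdc73 also had more reads, with a median of 421.5 reads per library against 210.5 for those higher in siPaf1. These are descriptions of the called genes, and the power to call a gene depends on its reads.

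Axin2, a negative regulator of beta-catenin that is itself a standard Wnt target gene, had the largest difference among called genes that averaged 50 or more reads. It had 316 and 266 reads in siPaf1, 6 and 5 in siCdc73 and 20 and 20 in siCtrl, that is 45.4 and 92.8 CPM, 0.93 and 1.6 CPM, and 2.80 and 3.36 CPM. The groups did not overlap, and siCtrl lay between the knockdowns. Axin2 (mm9, chromosome 11, 108781663 to 108812097, plus strand) was 52.5-fold higher in siPaf1 than in siCdc73, a log2 difference of 5.71 (standard error 0.42, edgeR adjusted p = 4.3e-11). Against siCtrl, which both comparisons share, it was 4.40 higher in siPaf1 (edgeR adjusted p = 3.3e-10) and differed by -1.31 in siCdc73 (edgeR adjusted p = 0.044).

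Of 12 listed genes of the Wnt feedback and target list, 8 were tested, and 3 were called higher in siPaf1 and 0 higher in siCdc73. Lgr5, a receptor for R-spondins, had 63 and 26 reads in siPaf1, 2 and 0 in siCdc73 and 0 and 0 in siCtrl. Its pooled reads gave a ratio of 43.5 between siPaf1 and siCdc73, with a 95% exact counting interval from 11.7 to 365, and it was at least 39.6-fold higher in siPaf1 than in siCtrl if 3 reads over the group are taken as the floor. Tcf7, a transcription factor that binds beta-catenin, stood at 18.8 and 23.4 CPM in siPaf1, 5.73 and 2.87 CPM in siCdc73 and 25.7 and 14.1 CPM in siCtrl. Here siPaf1 was near the control, and siCdc73 lay below both, with a difference of 2.26 (standard error 0.40, edgeR adjusted p = 0.0001). Dact1, an antagonist of Wnt signalling that was among the 12 largest differences in that direction, reached 26.5 and 32.8 CPM in siPaf1 against 3.10 and 2.87 CPM in siCdc73 and 8.94 and 7.90 CPM in siCtrl. The list did not share a direction: 4 of the 8 tested genes lay above 0 and 4 below, among them Myc at -0.43 (edgeR adjusted p = 0.165, and 0.0118 at -0.75 without the siPaf1 library of batch 2), and with genes under a mean of 50 reads left out its median turned from 0.81 to -0.41. Letters bound by the TCF/LEF partners of beta-catenin, CTTTGAT and CTTTGAA on either strand, were in 3.73% and 5.14% of all 32851 RefSeq promoters of 300 bases. Of the tested genes with these letters, 26 of 174 and 33 of 210 were called higher in siPaf1 and 20 and 30 higher in siCdc73, which is near the 14.6% and 13.6% of all genes.

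**Figure D2:**
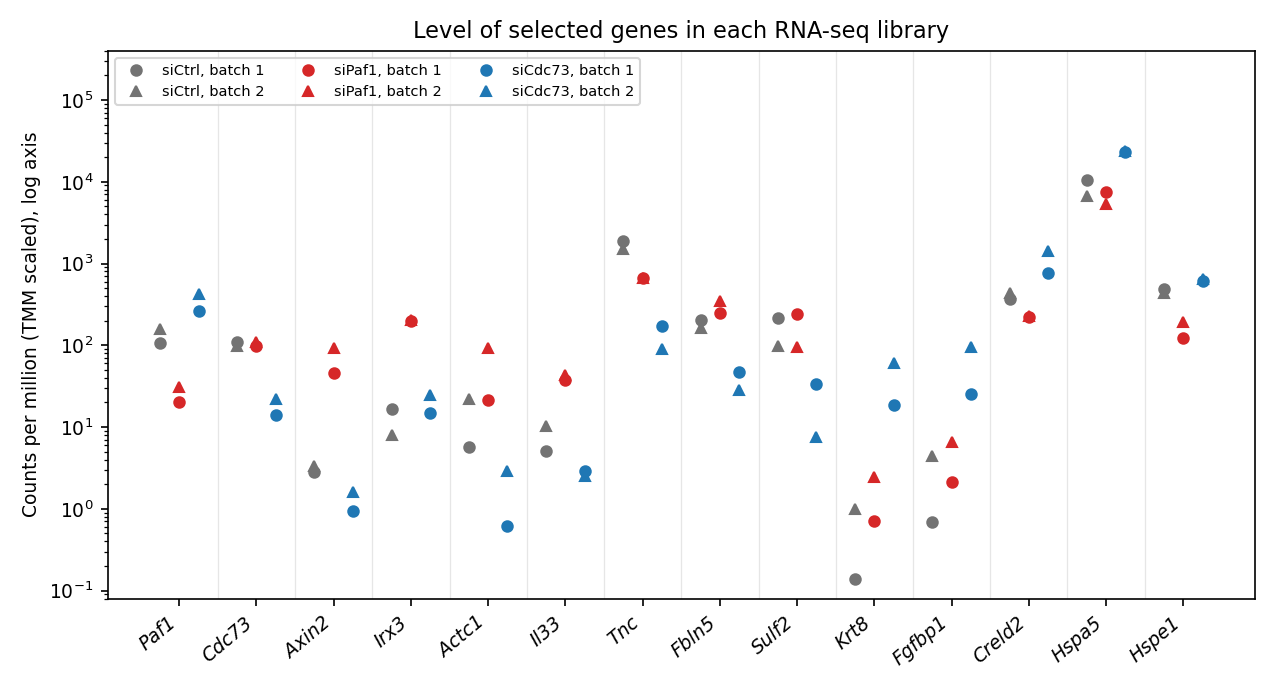
CPM after TMM scaling, on a log axis, of 14 genes in the 2 siCtrl (grey), 2 siPaf1 (red) and 2 siCdc73 (blue) libraries, with circles for batch 1 and triangles for batch 2. Axin2 is at 45.4 and 92.8 CPM in siPaf1 and below 4 CPM in the other libraries, while Krt8 and Fgfbp1 are high in siCdc73 and Hspa5 reaches 23981 CPM there.

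Among genes of muscle fibres, more were higher in siPaf1 than in siCdc73. Of 23 tested genes of the contractile and differentiation list, 8 were called higher in siPaf1 and 1 higher in siCdc73. Over all genes these shares were 14.6% and 13.6%. On the list 20 genes had a difference above 0, with a median of 0.83 on the log2 scale against 0.02 over all genes. Actc1, the cardiac actin that is also made in developing skeletal muscle, stood at 21.7 and 93.5 CPM in siPaf1, 0.62 and 2.87 CPM in siCdc73 and 5.73 and 21.9 CPM in siCtrl. Within each batch siPaf1 was above siCtrl and siCdc73 below it. The log2 difference was 5.03 (standard error 0.41, edgeR adjusted p = 2.7e-10). Myh1, an adult fast myosin heavy chain, had 14.7 and 68.4 CPM in siPaf1, 1.55 and 7.66 CPM in siCdc73 and 0.56 and 2.19 CPM in siCtrl. Both knockdowns were above the control for Myh1, and siPaf1 was 3.18 above siCdc73 (standard error 0.38, edgeR adjusted p = 4.6e-07). Tnnt1, the slow skeletal troponin T, followed with 17.8 and 68.7 CPM against 2.63 and 9.89 CPM, a difference of 2.77 (edgeR adjusted p = 1.1e-06). Des, which encodes desmin, the intermediate filament protein of muscle, was 1.96-fold higher in siPaf1, at 1338 and 1978 CPM against 631 and 1104 CPM (edgeR adjusted p = 0.0013). The exception was Myl1, a light chain of fast myosin, at 7.91 and 41.5 CPM in siPaf1 and 11.6 and 101 CPM in siCdc73 (difference -0.99, edgeR adjusted p = 0.020). In bulk samples a change in the share of cells that make a transcript and a change in its amount per cell cannot be told apart. The summed myoblast and myotube markers given above were also higher in siPaf1 than in siCdc73 within each batch, and their part in these differences was not tested. The myoblast sum includes Des itself, so it is not separate from these genes, and its member Myf5 was higher in siCdc73. The calls of Actc1, Myh1, Neb and Tnnt1 held in each of 6 fits that left out 1 library, and the count of genes higher in siPaf1 went from 8 to 4 without the siCdc73 library of batch 1 and to 5 without that of batch 2.

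The regulators of myogenesis did not move as a group. Of 7 tested, Pax7, a marker of muscle stem cells, was called higher in siPaf1 (36.8 and 13.3 CPM against 18.1 and 2.87 CPM, edgeR adjusted p = 0.0048). Myf5, a factor of early myoblasts, was called higher in siCdc73 (52.8 and 47.1 CPM against 78.3 and 109 CPM, edgeR adjusted p = 0.011). Without the siCdc73 library of batch 2 neither passed the test, at edgeR adjusted p of 0.0501 for Pax7 and 0.289 for Myf5, and Myf5 did not pass without the siPaf1 library of batch 2 either. The median of the 7 was -0.17, and 0.01 with library size alone. Called genes were 28.6% of the 7, which is near the 28.2% of all genes.

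Genes of the extracellular matrix were called in both directions, with more of them higher in siPaf1 on the matricellular and collagen lists. On the list of matrix proteases and their inhibitors 2 of 9 were called in each direction. Over all genes 14.6% were called higher in siPaf1 and 13.6% higher in siCdc73. Tnc, which encodes the matrix glycoprotein tenascin C (mm9, chromosome 4, 63620819 to 63681760, minus strand), stood at 672 and 661 CPM in siPaf1, 174 and 90.3 CPM in siCdc73 and 1891 and 1524 CPM in siCtrl. Both knockdowns were below the control, and siCdc73 was below siPaf1 in both batches. Between the knockdowns the log2 difference of Tnc was 2.39 (edgeR adjusted p = 2.4e-08). Against the shared siCtrl it differed by -1.34 in siPaf1 and -3.73 in siCdc73. Of 12 matricellular genes tested, 5 were called higher in siPaf1 (Fbln5, Tnc, Postn, Ctgf and Thbs2) and 1, Spp1, higher in siCdc73, with a median of 0.47. Fbln5, an elastic fibre protein, had 249 and 352 CPM in siPaf1, 46.6 and 28.1 CPM in siCdc73 and 202 and 163 CPM in siCtrl, so that siCdc73 was far below both other groups (difference 3.02, standard error 0.28, edgeR adjusted p = 5.9e-09). The calls of Thbs2 and Spp1 were lost without either siCdc73 library or without 1 of the siPaf1 libraries; without the siCdc73 library of batch 1 and of batch 2 they had adjusted p of 0.330 and 0.199 for Thbs2 and of 0.305 and 0.292 for Spp1.

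Of 11 collagen genes tested, Col8a1, Col8a2, Col24a1 and Col2a1 were called higher in siPaf1 and Col5a3 higher in siCdc73, and the median was 0.48. Called genes were 45.5% of the list, beside 28.2% of all genes. The calls of Col24a1, Col2a1 and Col5a3 were each lost in at least 1 fit that left out a library, with adjusted p up to 0.297, 0.229 and 0.0995. The count of 4 became 7 without the siPaf1 library of batch 1, where the median was 0.95, and the median was 0.20 without that of batch 2 and 0.25 without the siCdc73 library of batch 2. Col8a1, a short-chain collagen, had 203 and 261 CPM in siPaf1 against 61.5 and 57.1 CPM in siCdc73 and 194 and 124 CPM in siCtrl. Col8a2, its partner chain, had 39.8 and 6.98 CPM against 6.04 and 0.64 CPM, so both chains differed in the same direction in each batch. Col5a3, a fibrillar collagen chain, ran the other way at 164 and 250 CPM in siPaf1 and 347 and 445 CPM in siCdc73, with both above the 83.9 and 87.0 CPM of siCtrl. Sulf2, an extracellular sulfatase that trims heparan sulfate, had 244 and 94.9 CPM in siPaf1, 33.7 and 7.66 CPM in siCdc73 and 216 and 96.9 CPM in siCtrl. It lay at the control level in siPaf1, and its difference between the knockdowns was 3.11 (standard error 0.28, edgeR adjusted p = 3.6e-09).

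A list of small proteoglycans and elastic fibre genes was drawn up after values had been seen and carries no test of its own. Of its 15 tested genes, 8 were called higher in siPaf1 and 0 higher in siCdc73, and the median was 0.72. Called genes were 53.3% of the list, beside 28.2% of all genes. Dcn, decorin, which binds collagen fibrils, stood at 28.0 and 63.5 CPM in siPaf1, 4.49 and 10.9 CPM in siCdc73 and 11.5 and 41.2 CPM in siCtrl (difference 2.60, edgeR adjusted p = 9.8e-07). Ogn, osteoglycin, a related small proteoglycan, stood at 108 and 92.8 CPM, 31.6 and 16.6 CPM, and 58.0 and 45.1 CPM in the same order of groups (difference 2.08, edgeR adjusted p = 1.9e-06). For both genes siCtrl lay between siCdc73 and siPaf1 within each batch. The list's count went from 8 to 4 without the siCdc73 library of batch 2, and the calls of Dcn, Ogn, Fbln5 and Prelp held in all 6 fits that left out 1 library.

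Secreted signals and receptors were among the largest differences. Fst, follistatin, an inhibitor of activins and myostatin, had 60.1 and 16.1 CPM in siPaf1, 6.50 and 0.96 CPM in siCdc73 and 25.7 and 8.91 CPM in siCtrl. The siCtrl libraries lay between the knockdowns in each batch (difference 3.33, standard error 0.38, edgeR adjusted p = 2.1e-07). Il33, an alarmin cytokine, had 38.0 and 42.9 CPM in siPaf1, 2.94 and 2.55 CPM in siCdc73 and 5.03 and 10.4 CPM in siCtrl (difference 3.80, standard error 0.40, edgeR adjusted p = 3.9e-08). Cntfr, the receptor chain for ciliary neurotrophic factor, had 16.5 and 59.3 CPM in siPaf1 against 0.93 and 1.91 CPM in siCdc73 (difference 4.55, edgeR adjusted p = 3.9e-08). Over all genes 14.6% were called higher in siPaf1 and 13.6% higher in siCdc73. Of 16 growth factor and cytokine ligands tested, 5 were called higher in siPaf1 and 0 higher in siCdc73, with a median of 0.48, and the 5 became 3 without the siCdc73 library of batch 1 and 2 without that of batch 2. Irx3, a homeobox transcription factor, had 196 and 202 CPM in siPaf1, 15.0 and 24.9 CPM in siCdc73 and 16.8 and 8.07 CPM in siCtrl. Its difference was 3.35 (standard error 0.31, edgeR adjusted p = 6.0e-09), and that of siCdc73 from siCtrl was 0.65 (edgeR adjusted p = 0.107).

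**Figure D3:**
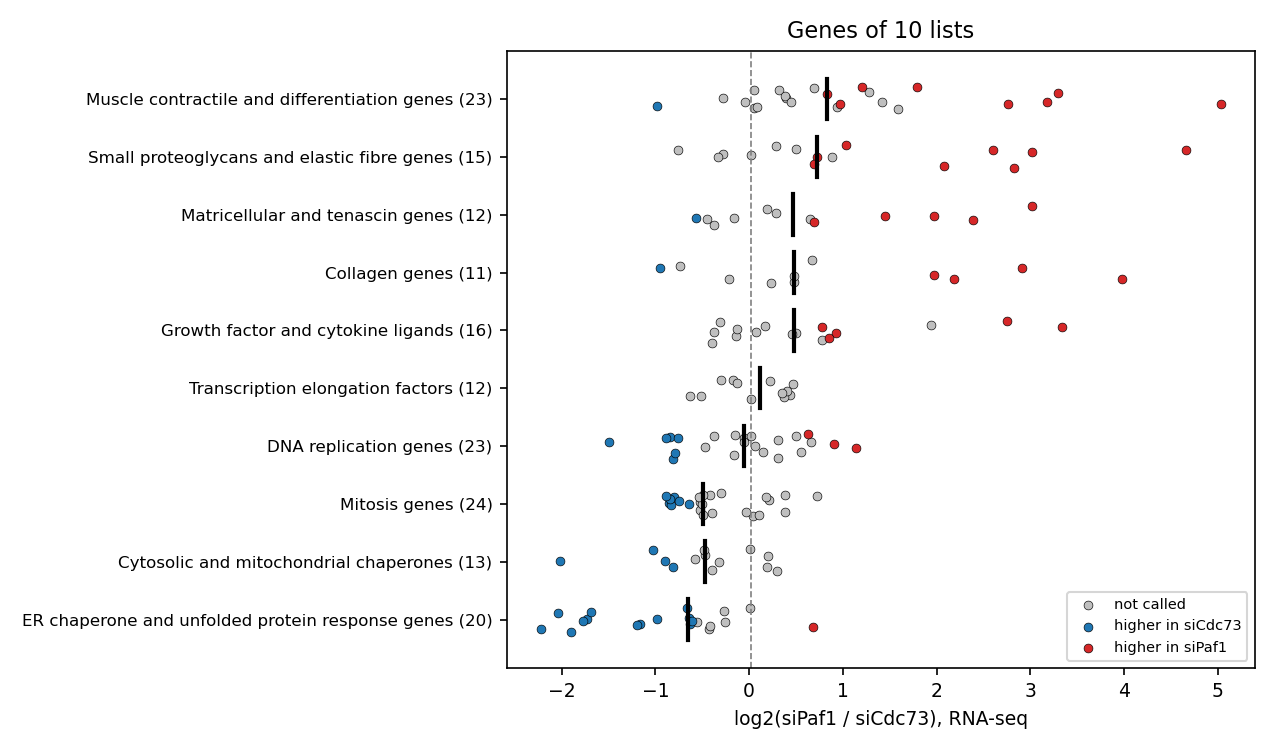
Each point is a gene of 1 of 10 lists, placed by its log2 difference between siPaf1 and siCdc73 in RNA-seq, with the number of genes tested in brackets, a black bar at the median of the list and a dashed line at the median of all genes (0.02). The contractile list has its median at 0.83 and the list of ER chaperones at -0.65.

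In the other direction, 13 of 20 tested genes of the endoplasmic reticulum (ER) folding machinery were called higher in siCdc73. Cells raise these chaperones in the unfolded protein response, in which factors such as Atf6 bind promoter elements of the chaperone genes. The promoters of Hspa5, Creld2 and Pdia6 are shown because they hold the ER stress response element and their genes were called higher in siCdc73, and that of Canx because it holds the element while Canx did not pass the test. Each is 300 bases from RefSeq (GRCm38.p6), 5' to 3' on the strand of the gene, from 250 bases before the transcript start, and capitals mark the letters CCAAT, 9 bases and CCACG on either strand.
Hspa5, chr2:34771840-34772139, plus strand: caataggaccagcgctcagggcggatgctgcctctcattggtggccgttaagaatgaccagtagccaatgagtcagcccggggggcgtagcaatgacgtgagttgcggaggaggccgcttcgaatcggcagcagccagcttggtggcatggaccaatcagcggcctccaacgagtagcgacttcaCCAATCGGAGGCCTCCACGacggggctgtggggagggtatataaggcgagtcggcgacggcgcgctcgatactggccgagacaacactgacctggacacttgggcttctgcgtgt
Creld2, chr15:88819396-88819695, plus strand: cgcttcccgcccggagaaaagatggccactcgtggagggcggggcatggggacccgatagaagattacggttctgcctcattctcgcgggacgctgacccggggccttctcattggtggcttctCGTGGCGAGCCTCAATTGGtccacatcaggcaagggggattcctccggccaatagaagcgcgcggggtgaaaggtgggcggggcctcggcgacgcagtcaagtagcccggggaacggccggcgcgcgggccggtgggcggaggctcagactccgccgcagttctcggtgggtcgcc
Pdia6, chr12:17266339-17266638, plus strand: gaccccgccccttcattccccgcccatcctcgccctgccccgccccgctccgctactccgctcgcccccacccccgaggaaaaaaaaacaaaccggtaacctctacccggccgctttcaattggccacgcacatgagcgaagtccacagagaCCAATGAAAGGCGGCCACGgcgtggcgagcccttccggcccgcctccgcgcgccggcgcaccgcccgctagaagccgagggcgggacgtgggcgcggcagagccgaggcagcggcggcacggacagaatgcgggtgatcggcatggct
Canx, chr11:50325624-50325923, minus strand: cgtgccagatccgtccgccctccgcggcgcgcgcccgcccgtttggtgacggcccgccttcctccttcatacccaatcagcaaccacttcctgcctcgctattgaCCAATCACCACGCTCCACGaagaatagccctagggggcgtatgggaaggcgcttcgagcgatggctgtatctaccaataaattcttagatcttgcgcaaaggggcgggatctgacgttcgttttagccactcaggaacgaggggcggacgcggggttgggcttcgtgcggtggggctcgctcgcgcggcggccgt

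This element was present in 39 of 32851 promoters of that length (0.119%), in 10 of the 4966 tested genes with a promoter sequence and in 4 of the 16 genes of the ER list with one. In Hspa5 it spans bases -65 to -47 from the start, and in Creld2 it lies on the opposite strand at -126 to -108. Of the 10 tested genes that hold it, 3 were called higher in siCdc73 and 4 higher in siPaf1, so genes with these letters were found in both directions. Over all genes these shares were 13.6% and 14.6%. A match is a description of the window and not a site that was tested.

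Hspa5, the main Hsp70 chaperone of the ER, stood at 23331 and 23981 CPM in siCdc73, 7560 and 5396 CPM in siPaf1 and 10454 and 6671 CPM in siCtrl. The siPaf1 libraries were below the control of their own batch and siCdc73 was above it. The log2 difference was -1.90 (standard error 0.21, edgeR adjusted p = 1.0e-07), that is 3.74-fold higher in siCdc73. Against the shared siCtrl, Hspa5 was 1.51 higher in siCdc73 (edgeR adjusted p = 1.3e-06), and its value of -0.39 in siPaf1 did not pass (edgeR adjusted p = 0.140). Per length, in the deposited RPKM values, Hspa5 was at 4439 and 4166 in siCdc73 and 1578 and 1052 in siPaf1. P4hb, a protein disulfide isomerase, was lower, at 2092 and 1608 RPKM in siCdc73 and 1215 and 869 RPKM in siPaf1. Dnajb9, an ER co-chaperone, was far lower, at 53.8 and 41.3 RPKM in siCdc73 and 17.8 and 13.0 RPKM in siPaf1.

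The ER list was drawn up after values had been seen. Of its 20 tested genes, 13 were called higher in siCdc73 and 1, Txndc5, higher in siPaf1, and 18 had a difference below 0, with a median of -0.65. Called genes were 70.0% of the list, beside 28.2% of all genes. Against the shared siCtrl the median of the list was -0.65 in siPaf1 and 0.22 in siCdc73. Creld2 and Manf, secreted or ER-resident proteins that are induced in ER stress, had differences of -2.22 and -2.04. Creld2 stood at 224 and 227 CPM in siPaf1, 765 and 1422 CPM in siCdc73 and 373 and 442 CPM in siCtrl. Manf stood at 113 and 114 CPM in siPaf1, 347 and 642 CPM in siCdc73 and 222 and 348 CPM in siCtrl. For both genes siCtrl lay between the knockdowns. Dnajb9 differed by -1.77 and stayed at the control level in siPaf1 (28.9 and 22.7 CPM against 27.4 and 27.9 CPM in siCtrl), with siCdc73 at 96.1 and 80.7 CPM. Atf6 itself, the stress sensor and transcription factor, was at 235 and 87.8 CPM in siCdc73 and 229 and 111 CPM in siCtrl, and at 72.6 and 25.1 CPM in siPaf1, so here the knockdown that left the control level was siPaf1. The calls of Creld2, Manf, Hspa5, Dnajb9, Atf6 and Pdia4 held in all 6 fits that left out 1 library, and the 13 became 9 without the siCdc73 library of batch 1, 6 without that of batch 2 and 9 under scaling by library size alone. Canx, calnexin, a lectin chaperone, differed by 0.01, with a sign that changed between settings, and was below siCtrl in both knockdowns, by -1.32 in siPaf1 and -1.34 in siCdc73.

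Outside the ER, 4 of 13 chaperones on a list drawn up after values had been seen were called higher in siCdc73 and 0 higher in siPaf1, with a median of -0.47. Over all genes these shares were 13.6% and 14.6%. Hspe1, the mitochondrial chaperonin cofactor, had 124 and 194 CPM in siPaf1, 614 and 649 CPM in siCdc73 and 488 and 439 CPM in siCtrl (difference -2.01, standard error 0.24, edgeR adjusted p = 3.8e-07). For Hspe1 it was siPaf1 that departed from the control. Its promoter is shown for its 2 overlapping matches to the heat shock element GAANNTTCNNGAA, which 198 of 32851 promoters (0.603%) hold on either strand, in capitals, and of 26 tested genes that hold it 3 were called higher in siPaf1 and 5 higher in siCdc73, with the same source and window as above.
Hspe1, chr1:55087898-55088197, plus strand: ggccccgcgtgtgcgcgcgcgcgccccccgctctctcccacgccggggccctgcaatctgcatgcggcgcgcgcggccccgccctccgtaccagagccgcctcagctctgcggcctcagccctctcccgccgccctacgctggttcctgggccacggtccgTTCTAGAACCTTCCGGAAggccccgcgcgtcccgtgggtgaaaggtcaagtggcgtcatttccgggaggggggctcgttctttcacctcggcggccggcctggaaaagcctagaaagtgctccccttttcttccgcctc
Hspa1b, an inducible cytosolic Hsp70, stood at 67.4 and 35.9 CPM in siPaf1, 131 and 64.1 CPM in siCdc73 and 42.5 and 26.7 CPM in siCtrl. It lost its call without the siCdc73 library of batch 1 or of batch 2 (adjusted p = 0.194 and 0.074), as did Hspa4. Hspb8 lost it without the siCdc73 or the siPaf1 library of batch 2. The count of 4 became 2 without the siCdc73 library of batch 1 and 1 without that of batch 2.

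Among called genes usually seen in epithelia that averaged 50 or more reads, Krt8 and Fgfbp1 differed most. Krt8, a keratin of simple epithelia, had 18.4 and 61.6 CPM in siCdc73, 0.72 and 2.44 CPM in siPaf1 and 0.14 and 1.01 CPM in siCtrl. It had 312 reads in siCdc73 and 7 in siCtrl over the libraries of each group, a ratio of 60.9 with a 95% exact counting interval from 29.2 to 153. The log2 difference between siPaf1 and siCdc73 was -4.64 (standard error 0.46, edgeR adjusted p = 1.3e-08). Fgfbp1, a secreted protein that releases fibroblast growth factors from the matrix, had 25.2 and 95.7 CPM in siCdc73, 2.16 and 6.63 CPM in siPaf1 and 0.70 and 4.37 CPM in siCtrl (difference -3.71, edgeR adjusted p = 1.2e-08). Sprr1a, a cornified envelope protein, differed by -3.07 but from a control level of 12.3 and 57.2 CPM, with 4.17 and 8.38 CPM in siPaf1 and 21.8 and 114 CPM in siCdc73. Cldn4, a tight junction protein, had 45 reads in siCdc73 and 0 in siPaf1, and was at least 15.4-fold higher in siCdc73 if 3 reads over the group are the floor. Without the siCdc73 library of batch 2 Cldn4 did not pass (edgeR adjusted p = 0.124). On this list, also drawn up after values had been seen, 4 of 9 tested genes were called higher in siCdc73 and 0 higher in siPaf1. Over all genes these shares were 13.6% and 14.6%. The median was -3.53, and it was the same with Cldn4 set to its bound. The 9 are those of 15 listed genes that passed the filter on low counts, which a gene could pass through a single library where it was high. With no filter the median over 13 genes was -1.33. In the fit of the 4 libraries alone 5 genes were tested, 3 were called higher in siCdc73 and the median was -3.09. In 3'READS 3 of 8 tested genes of the list lay above 0.

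**Figure D4:**
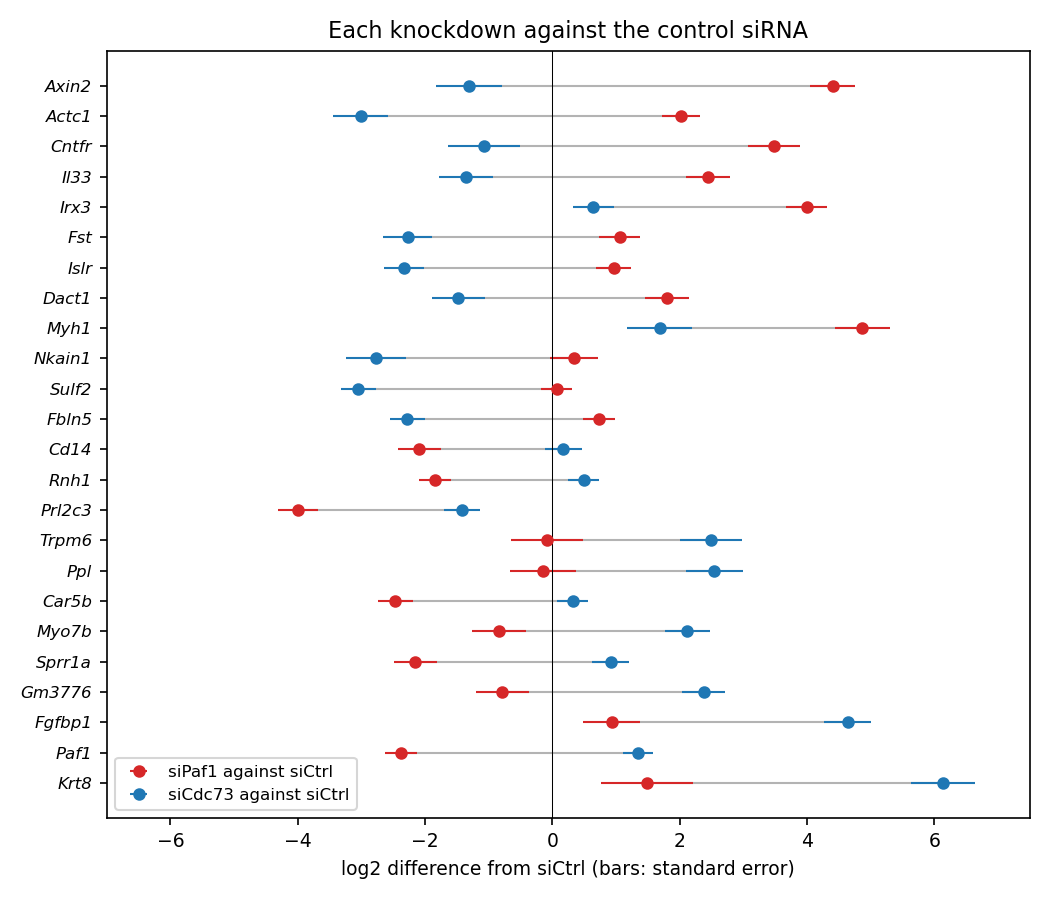
For the 12 genes with the largest difference in each direction, the log2 difference from siCtrl is shown for siPaf1 (red) and siCdc73 (blue), with bars for the standard error; both use the same 2 siCtrl libraries. Axin2 lies at 4.40 and -1.31, Krt8 at 1.49 and 6.13, and Sulf2 at 0.07 and -3.05.

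The remaining genes with the largest differences fell apart in how each knockdown stood to the shared control. Car5b, a mitochondrial carbonic anhydrase, had 16.5 and 8.72 CPM in siPaf1, 105 and 69.2 CPM in siCdc73 and 82.2 and 56.8 CPM in siCtrl. Rnh1, the ribonuclease inhibitor, had 108 and 81.7 CPM, 375 and 630 CPM, and 295 and 412 CPM in the same order. In both, siPaf1 was below the control and siCdc73 close to it, at 0.32 (edgeR adjusted p = 0.312) for Car5b and 0.49 (edgeR adjusted p = 0.107) for Rnh1. Ppl, periplakin, and Trpm6, a magnesium channel, were the reverse: siPaf1 differed from siCtrl by -0.14 and -0.09, and siCdc73 by 2.54 and 2.50. Gm3776, at -3.17, and Prl2c3, at -2.58 between the knockdowns, have near-identical relatives in the genome, so their counts are uncertain. The calls of all 24 genes with the largest differences held in each of the 6 fits that left out 1 library.

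Of 24 mitosis genes tested, 7 were called higher in siCdc73 and 0 higher in siPaf1, with a median of -0.49. Genes called higher in siCdc73 were thus 29.2% of the list, beside 13.6% of all genes, while 14.6% of all genes were called higher in siPaf1. Of the 24, 17 lay below 0, and in 3'READS 6 of 24 lay above 0, with a median of -0.31. The medians of the list against the shared siCtrl were -2.04 for siPaf1 and -1.60 for siCdc73, so the list was low in both. Pttg1, securin, stood at 150 and 302 CPM in siPaf1, 327 and 458 CPM in siCdc73 and 323 and 842 CPM in siCtrl (difference -0.89, edgeR adjusted p = 0.0059). The count of 7 became 0 without the siCdc73 library of batch 1, where the median was -0.21, and 2 without that of batch 2. It was 11 without the siPaf1 library of batch 1, 3 without that of batch 2 and 3 with library size alone. Of 23 DNA replication genes, 6 were called higher in siCdc73 and 3 higher in siPaf1, and the median of -0.05 turned to 0.13 under scaling by library size alone, to 0.10 without the siPaf1 library of batch 2 and to 0.16 without the siCdc73 library of batch 1. Mcm2, a subunit of the replicative helicase, was at 101 and 76.8 CPM in siPaf1, 281 and 221 CPM in siCdc73 and 503 and 492 CPM in siCtrl (difference -1.50, standard error 0.23, edgeR adjusted p = 2.0e-05). Pole, the catalytic subunit of a leading-strand polymerase, ran the other way at 75.1 and 58.3 CPM in siPaf1, 45.8 and 17.2 CPM in siCdc73 and 290 and 217 CPM in siCtrl (difference 1.14, edgeR adjusted p = 0.0023). Of these 9 calls only that of Mcm2 held in all 6 fits that left out 1 library, and without the siCdc73 library of batch 2 the counts were 1 and 0.

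Several stress and metabolic lists held called genes. Of 9 integrated stress response genes tested, 0 were called higher in siPaf1 and 2 higher in siCdc73. Of 11 cholesterol synthesis genes tested, the counts were 0 and 3. No call on either list held in each of the fits that left out a library. The median of the stress response list was -0.22, and 0.04 without the siPaf1 library of batch 2. That of the cholesterol list was -0.21, and -0.03 without the siCdc73 library of batch 2. Over all genes the shares were 14.6% and 13.6%. Cdkn1a, the p21 inhibitor of the cell cycle, was at 581 and 191 CPM in siPaf1, 951 and 860 CPM in siCdc73 and 379 and 280 CPM in siCtrl (difference -1.39, edgeR adjusted p = 0.00028), and without the siCdc73 library of batch 2 it did not pass (adjusted p = 0.071). Trp53inp1, another p53 target, was at 86.0 and 66.3 CPM in siPaf1 against 27.4 and 15.6 CPM in siCdc73 and 36.5 and 14.5 CPM in siCtrl (difference 1.87, edgeR adjusted p = 2.4e-05). These 2 targets of p53 thus went in opposite directions, and 3 of the 13 on the list were called (23.1%), beside 28.2% of all genes. Ndufa10, a subunit of respiratory complex I, was at 510 and 724 CPM in siPaf1, 191 and 190 CPM in siCdc73 and 546 and 711 CPM in siCtrl (difference 1.67, edgeR adjusted p = 3.3e-06), and of the 27 oxidative phosphorylation genes tested 3 were called higher in siPaf1 and 5 higher in siCdc73, shares close to the 14.6% and 13.6% of all genes. Of 37 cytosolic ribosomal protein genes, 1 was called higher in siPaf1 and 3 higher in siCdc73, which is below those shares. Of the 37, 11 lay above 0 and 26 below, with a median of -0.34 (-0.14 in batch 1 and -0.48 in batch 2), and of -0.15 with library size alone. In 3'READS 4 of 35 ribosomal protein genes lay above 0, with a median of -0.28. Letters bound by AP-1, TGACTCA on either strand, were in 5.20% of all promoters, and of 234 tested genes with them 23 were called higher in siPaf1 and 44 higher in siCdc73, beside 14.6% and 13.6% of all genes.

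The same contrast was read in 3'READS, an assay that sequences the ends of polyadenylated transcripts, in separate libraries of the same groups and batches. Reads were summed over the sense sites of each gene, with sites in introns and internal exons included. There, 1017 of 12579 genes tested were higher in siPaf1 (8.08%) and 792 were higher in siCdc73 (6.3%) by the same edgeR test. Without the siCdc73 library of batch 2 these became 369 and 301, and without the batch in the fit 0 were called, with 758 and 540 at an unadjusted p under 0.05. Of the genes called in RNA-seq, 839 higher in siPaf1 were tested in 3'READS and 799 had the same sign, and of 807 higher in siCdc73, 778 did. Among the genes not called in RNA-seq, 2909 of 3964 had the same sign. Of the called genes, 314 and 295 were also called in the same direction in 3'READS. Over the 5610 genes tested in both, the differences correlated with r of 0.714, a description across genes that are not independent replicates.

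In 3'READS, Paf1 was at -3.71 (edgeR adjusted p = 3.0e-05), Irx3 at 3.12 (edgeR adjusted p = 3.9e-05), Il33 at 3.88 (edgeR adjusted p = 3.0e-05), Fbln5 at 2.48 (edgeR adjusted p = 0.00017) and Hspa5 at -1.93 (edgeR adjusted p = 0.00036). Tnc, at 2.21 (edgeR adjusted p = 0.0015), had 121 and 767 CPM in siPaf1 and 50.8 and 95.5 CPM in siCdc73. Axin2 had few reads in 3'READS: 0.13 and 2.65 CPM in siPaf1, 0 and 0 in siCdc73 and 0 and 0.28 CPM in siCtrl, and it did not pass the test (edgeR adjusted p = 0.074). Tcf7 was at -0.93 there (edgeR adjusted p = 0.577) and Hspa1b at 0.09 (edgeR adjusted p = 0.934), each with the opposite sign to RNA-seq. The median of the Wnt list was -0.78 in 3'READS, with 3 of 7 genes above 0, against 0.81 in RNA-seq. The median of the ER list was -0.89 there, with 2 of 20 genes above 0.

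In all, 4 genes were called in opposite directions by the assays, and they are named after their values were seen. Tymp, thymidine phosphorylase, had 102 and 47 RNA-seq reads in siPaf1 against 165 and 195 in siCdc73 (difference -1.39), but 1479 and 2218 3'READS reads in siPaf1 against 424 and 456 in siCdc73 (difference 1.59). Zfhx4, a zinc-finger homeobox protein, had 1648 and 712 RNA-seq reads against 1256 and 270 (difference 0.94), but 425 and 1103 3'READS reads against 1371 and 3081 (difference -2.00). Kif26b, a kinesin family member, differed by 1.65 in RNA-seq and -1.34 in 3'READS, and Cggbp1 by 0.71 and -1.10. RNA-seq counted the coding region and 3'READS the ends of transcripts, so the assays read different parts of these genes. Whether this bears on the opposite signs was not tested. Each of the 4 lost its RNA-seq call in at least 1 fit that left out a library, Tymp without the siCdc73 library of batch 2 (adjusted p = 0.361).

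**Figure D5:**
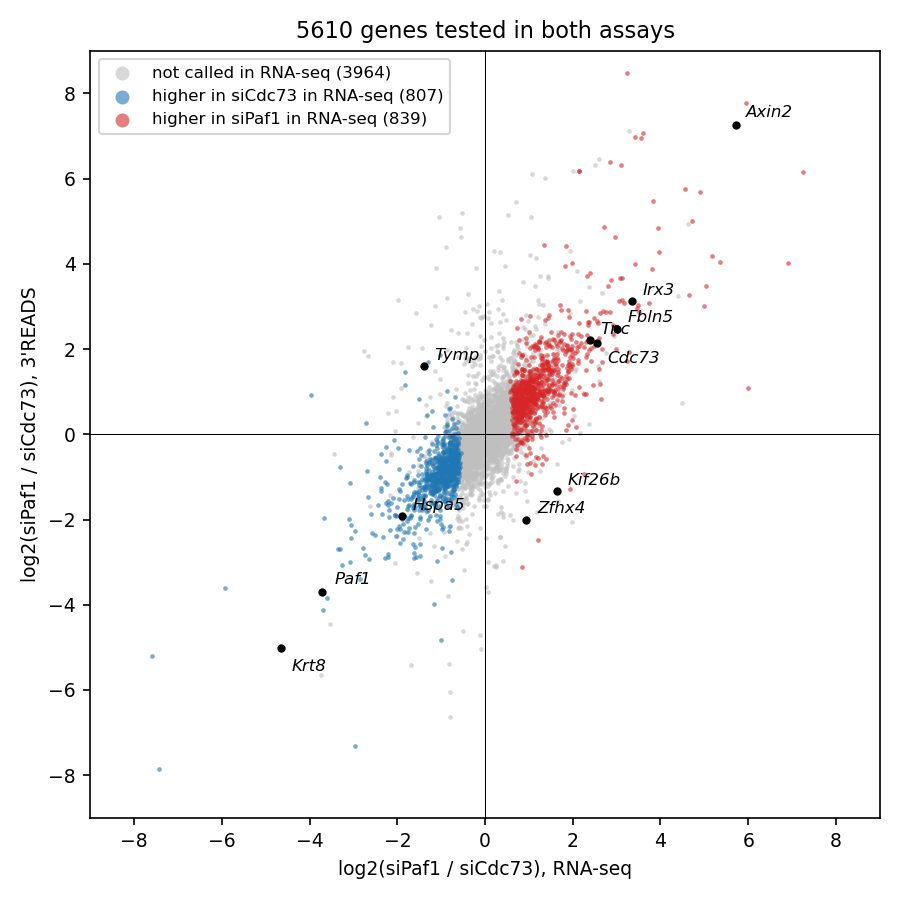
Log2 ratio of siPaf1 to siCdc73 in RNA-seq (horizontal) and in 3'READS (vertical) for the 5610 genes tested in both, coloured by the RNA-seq call. Of the coloured genes 799 of 839 (red) and 778 of 807 (blue) have the same sign in both assays, and Tymp, Zfhx4 and Kif26b lie in the opposite quadrants.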

How the data were processed

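C2C12 RNA-seq and 3'READS libraries were grouped by siRNA and batch as labelled. For RNA-seq, the authors aligned reads with Bowtie2 against mm9, kept uniquely mapped reads with a mapping quality over 10 and deposited counts over the coding region of RefSeq transcripts, without normalization, beside RPKM values. Tool versions are not given in the sources used here. For 3'READS the authors deposited counts of reads at polyadenylation sites. The table of 15033 transcripts was reduced to 9999 genes by keeping, per gene symbol, the transcript with the most reads on average, and 0 per-sample columns were left unmatched.

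Counts were fitted in R 4.3.3 with edgeR 4.0.16 (TMM, filter on low counts, quasi-likelihood test) over all 7 libraries (a single siSki8 library included) with group and batch, on 2 residual degrees of freedom. Differences within and between batches were taken from log2 CPM with a prior count of 2. The batch block follows the labels, and the batch 1 to batch 2 differences of siPaf1 and siCdc73 correlated with r of 0.633 across genes. P-values were adjusted by Benjamini-Hochberg over all genes tested, with 0.05 as the threshold for a call. Alternatives were DESeq2 1.42.0, other normalizations and filters, the 4 libraries alone, no batch term, the longest transcript, the rule of 1.4-fold and a Fisher p under 0.01 on pooled reads, and leaving out each library. The fits were tested on simulated data. Genes with near-identical copies (Gm3776, Prl2c3) are uncertain. Counting intervals cover counting error only, since reads carry no molecular identifiers. In RNA-seq the siPaf1 and siCdc73 libraries of batch 2 had the fewest reads and limit low genes most, while in 3'READS, with 5290791 to 14311581 reads, they had the most.

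The genes named are the Paf1C subunits, Axin2 and Tnc, the 12 largest called differences in each direction with a mean of at least 50 reads, and up to 4 called genes from each list. Other genes named were chosen after their values were seen. The comparison, members and lists were chosen with earlier results of these data known. Gene positions are from GENCODE on mm9. Promoters are from RefSeq on GRCm38.p6. Figures were drawn with matplotlib 3.10.9.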

Additional observations from a re-analysis of the deposited data

How the results depend on the processing

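The batch term decided whether any gene was called. With no replicate block, 0 genes were called in total and in each direction, in RNA-seq and in 3'READS, against 1839 and 1809 with it. Among the RNA-seq alternatives that kept the block and all libraries, totals ran from 1462 (DESeq2) to 1975 (library size alone), and library size alone cut the genes higher in siCdc73 to 567. The rule of 1.4-fold and a Fisher test on pooled reads, which ignores the spread between libraries, gave 2974 genes, 1948 of them higher in siPaf1. Leaving out 1 library gave from 473 to 2163 genes in all, from 254 to 1043 higher in siPaf1 and from 219 to 1120 higher in siCdc73. In 3'READS, library size alone gave 1585 and 510, and leaving out 1 library gave from 670 to 2661 in all, from 369 to 1485 and from 301 to 1176. Of 164 genes named or called on a list, all but Wdr61 and Canx, neither of them called, kept their direction in every setting that tested them. Wdr61, at -0.03, was at 0.16 with library size alone and between -0.40 and 0.28 when 1 library was left out. Canx, at 0.01, was at -0.0056 with no replicate block, -0.0044 with DESeq2, -0.0043 with relative log expression factors and between -0.079 and 0.092 when 1 library was left out. Of 160 called genes among these, 61 kept their call without each library in turn, and 92 lost it without the siCdc73 library of batch 2. With no replicate block, Axin2 was at 5.82 with an edgeR adjusted p of 0.165. The cause of these shifts was not tested. The median of the contractile list lay between 0.44 (stricter filter) and 1.03 (library size alone), and that of the ER list between -0.47 (library size alone) and -1.02 (leaving out siPaf1 of batch 1). Depth limits genes with few reads, such as Lgr5 and Cldn4.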

Other observations

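A few further genes were called, some of them on lists described above. Adamts1, a matrix protease, stood at 183 and 104 CPM in siPaf1, 59.4 and 31.6 CPM in siCdc73 and 144 and 63.1 CPM in siCtrl (edgeR adjusted p = 1.1e-05). Adam8 ran the other way, at 17.0 and 12.6 CPM in siPaf1 and 41.2 and 61.3 CPM in siCdc73. Klf4, a zinc-finger factor of the immediate early list, had 171 and 111 CPM in siPaf1, 65.0 and 44.4 CPM in siCdc73 and 117 and 107 CPM in siCtrl. Ptgs2, the inducible cyclooxygenase, was above the control in both knockdowns, at 347 and 269 CPM in siPaf1 and 692 and 423 CPM in siCdc73 against 127 and 51.6 CPM in siCtrl. Its call between the knockdowns was lost without either siCdc73 library or without the siPaf1 library of batch 1. Ankrd37 and Ero1l, which are induced in hypoxia, were higher in siCdc73, with siPaf1 minus siCdc73 at -1.52 and -1.46 on the log2 scale. Their list of glycolysis and hypoxia genes did not share this size of difference. Of its 18 tested genes 1 was called higher in siPaf1 and 3 higher in siCdc73, together 22.2%, beside 28.2% of all genes. On it 7 genes lay above 0 and 11 below, with a median of -0.12 (0.09 in batch 1 and -0.31 in batch 2). Pparg, the nuclear receptor of fat cells, was at 13.5 and 11.9 CPM in siPaf1, 35.5 and 46.3 CPM in siCdc73 and 41.8 and 68.1 CPM in siCtrl.

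Among axon guidance genes, Ntn1, netrin 1, was at 53.2 and 20.6 CPM in siPaf1, 19.2 and 7.34 CPM in siCdc73 and 48.2 and 23.9 CPM in siCtrl. Epha4, an ephrin receptor, was at 69.7 and 22.7 CPM in siPaf1, 183 and 52.3 CPM in siCdc73 and 51.2 and 16.8 CPM in siCtrl. Itga6, an integrin chain that binds laminin, was at 253 and 96.0 CPM in siPaf1, 104 and 39.3 CPM in siCdc73 and 294 and 119 CPM in siCtrl. Their calls held in each of the 6 fits that left out 1 library.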
